A study of Mus musculus with 9 samples.

Results

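The genes described here encode the subunits of the proteasome and of its assembly factors and activators. The 41 listed symbols are the 7 alpha-ring genes (Psma1 to Psma7), the 7 constitutive beta-ring genes (Psmb1 to Psmb7), the 3 inducible beta subunits of the immunoproteasome (Psmb8, Psmb9 and Psmb10), and the 6 ATPases of the regulatory particle (Psmc1 to Psmc6). The remaining symbols are the 3 other base subunits (Psmd1, Psmd2 and Psmd4), the 8 lid subunits (Psmd3, Psmd6, Psmd7, Psmd8, Psmd11, Psmd12, Psmd13 and Psmd14), the 3 base assembly chaperones (Psmd5, Psmd9 and Psmd10) and the 4 activator genes (Psme1 to Psme4). Each gene was represented by the probe set annotated to its symbol alone that had the highest mean signal over the 9 arrays. A probe set is a group of short probes that are read together as 1 signal. By this rule 40 of the 41 genes had a probe set, among 18193 genes with a probe set of their own. All 40 passed the filter on dim probe sets, a signal above 15.55 in at least 3 arrays, as did 12466 genes in all. Psme2 shared its only probe set with Psme2b and is described by that shared probe set.

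RNA was measured in liver from 9 female Crlj:CD1(ICR) mice, an outbred stock, bought at 9 weeks of age and quarantined for 1 week. For 2 weeks, 3 mice ate a diet without test compound (0 ppm), 3 ate a diet with 5000 ppm permethrin, a pyrethroid insecticide, and 3 ate a diet with 5000 ppm clofibrate, a fibrate that activates the nuclear receptor PPAR alpha. Each mouse had 1 Affymetrix array, and the values are linear MAS5 signals, a brightness per probe set. The sample descriptions of the treated groups speak of rats, while organism and strain are mouse.

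The proteasome degrades proteins that carry ubiquitin chains. Its barrel-shaped core has outer alpha rings, which gate the entry, and inner beta rings, which hold the proteolytic sites. A regulatory particle caps the core: ATPases in its base unfold the substrate and feed it into the core, receptors in the base bind ubiquitin chains, and the lid removes them. Under interferon, inducible beta subunits take the place of the constitutive catalytic ones, and the resulting immunoproteasome cuts more of the peptides that MHC class I molecules present. When proteasome activity falls short, the transcription factor NRF1, encoded by Nfe2l1, raises transcription of the subunit genes as a group.

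The mean signal of every array was 100.001 after trimming 2% of the probe sets at each end, and array medians ran from 13.43 to 17.88. Correlations of log2 signals between arrays were 0.9586 to 0.9661 within groups and 0.9515 to 0.9632 between groups. The liver label was checked with hepatocyte markers. Of 10 listed markers, 8 had a probe set of their own and all 8 passed the filter, with summed signals of 72160 to 77210 in control, 62820 to 68190 in permethrin and 50450 to 60140 in clofibrate mice. With clofibrate 5 of these 8 fell, among them Alb (albumin) with a log2 change of -0.42 ± 0.09 (limma adjusted p = 0.0248). The Alb call ended without any 1 control mouse or without clofibrate 3 (highest adjusted p 0.104), as did that of the apolipoprotein gene Apoa2 (0.0826), and that of Apoa1 ended in 8 of the 9 fits without 1 mouse, all but that without clofibrate 2 (0.148). The change of Alb was -0.0816 (limma adjusted p = 0.723) under scaling to the hybridization controls, and that of Apoa1 was 0 under quantile normalization. The 18S ribosomal RNA probe set read 122 to 194 in control mice, 33.4 to 95.1 in permethrin mice and 47.1 to 68.6 in clofibrate mice. The ratio of the 3′ to the 5′ Gapdh probe set, a measure of RNA integrity, was 0.912 to 1.04, 0.835 to 0.904 and 0.856 to 0.895 in the same order. Of 12 bile duct and pancreas markers 7 had a probe set of their own and 4 passed the filter. The 7 summed to 1173 to 1494 in control against 240.3 to 349.6 and 247.6 to 310.8 in permethrin and clofibrate mice. That difference lay in Cela1, an elastase, which fell in both treated groups, while the pancreatic genes Cpa1 and Ctrb1 did not pass the filter. The part of these shifts in the results that follow was not tested.

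More proteasome genes were above the controls than below them in both treated groups. With permethrin 4 of 40 rose and 0 fell, and with clofibrate 12 of 40 rose and 0 fell. A call is a limma adjusted p under 0.05, with p-values adjusted over all tested probe sets. Of all 12466 genes, 1.28% rose and 0.85% fell with permethrin, and 3.22% rose and 3.8% fell with clofibrate. The median log2 change of the 40 was 0.197 with permethrin against -0.0445 over all genes, and 0.265 with clofibrate against -0.0444. A log2 change here is a difference of log2(signal + 3.348), which understates the change of dim genes, and is given ± its SE (n = 3 mice per group). Changes above 0 were found in 32 of 40 members with permethrin (43.7% of all genes) and in 35 of 40 with clofibrate (44.7% of all genes). All 3 permethrin mice lay above all 3 control mice for 23 members, an order that 9.53% of all genes showed, and below them for 0 (13.2%). At an unadjusted limma p under 0.05, 18 members were higher with permethrin (6.89% of all genes) and 0 lower (8.9%), and 21 were higher with clofibrate (9.03%) and 1 lower (12%). For clofibrate the 3 mice lay above the controls for 23 members (11.6%) and below them for 1, Psmb10 (15.6%). The 40 members had mean signals between 127.77 and 3706.7. Among the 5100 genes in that range, a background chosen after the data were seen, 2.51% rose with permethrin and 5.67% with clofibrate, and the median changes were -0.00476 and -0.0183. Both comparisons use the same 3 control mice.

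**Figure D1:**
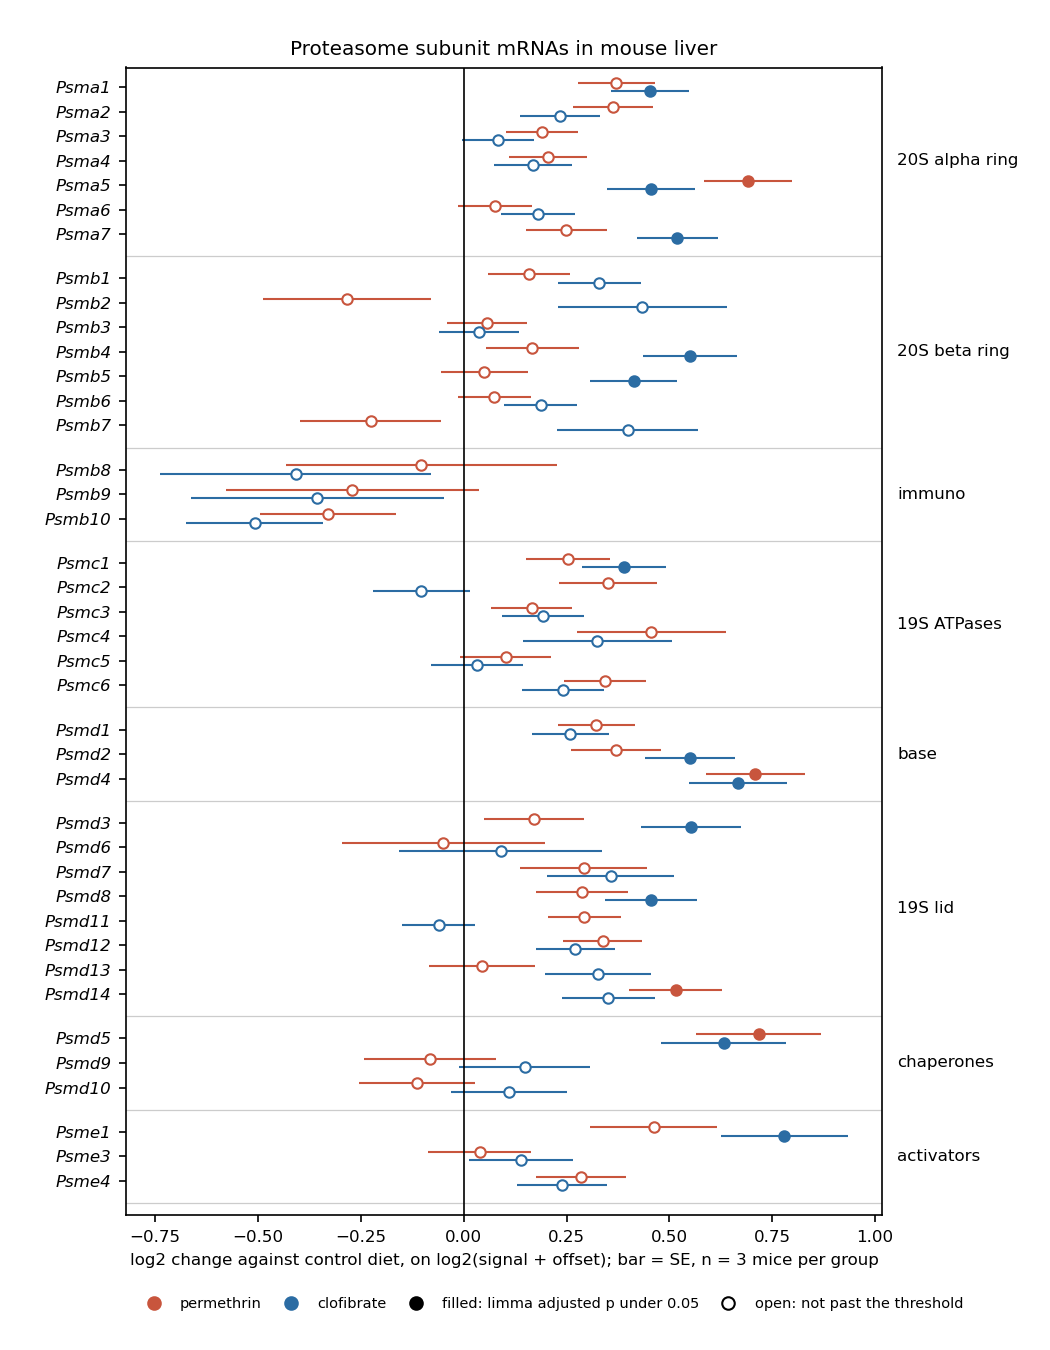
Log2 change against the control diet of the 40 measured proteasome genes, grouped by subunit class, in permethrin (red) and clofibrate (blue) mice. Bars are standard errors (n = 3 mice per group) and filled points passed a limma adjusted p of 0.05. The 4 filled red and 12 filled blue points all lie right of 0, and the 3 immunoproteasome subunits lie left of it.

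Psma5, Psmd4 and Psmd5 rose in both comparisons. Psmd14 passed the threshold with permethrin alone, and 9 members passed it with clofibrate alone: Psma1, Psma7, Psmb4, Psmb5, Psmc1, Psmd2, Psmd3, Psmd8 and Psme1. The other 27 passed it in neither. The called changes were small, 1.43- to 1.64-fold with permethrin and 1.31- to 1.72-fold with clofibrate. The number called depended on single mice. For permethrin it was 1 without control 3 or without permethrin 2, and 2 without control 1, permethrin 1 or permethrin 3. Over all genes the number that rose with permethrin was 160, and 98, 104, 83, 115 and 86 in these fits in the same order. For clofibrate it was 4 without control 1, 6 without control 2, 3 without control 3, 6 without clofibrate 2 and 2 without clofibrate 3. Over all genes 402 rose with clofibrate, and 244, 284, 266, 277 and 213 did in these fits in the same order. Calls were thus lost over the whole array too. Without an intensity trend in the variance model the counts were 0 for permethrin and 1 for clofibrate, and 62 and 219 over all genes.

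**Figure D2:**
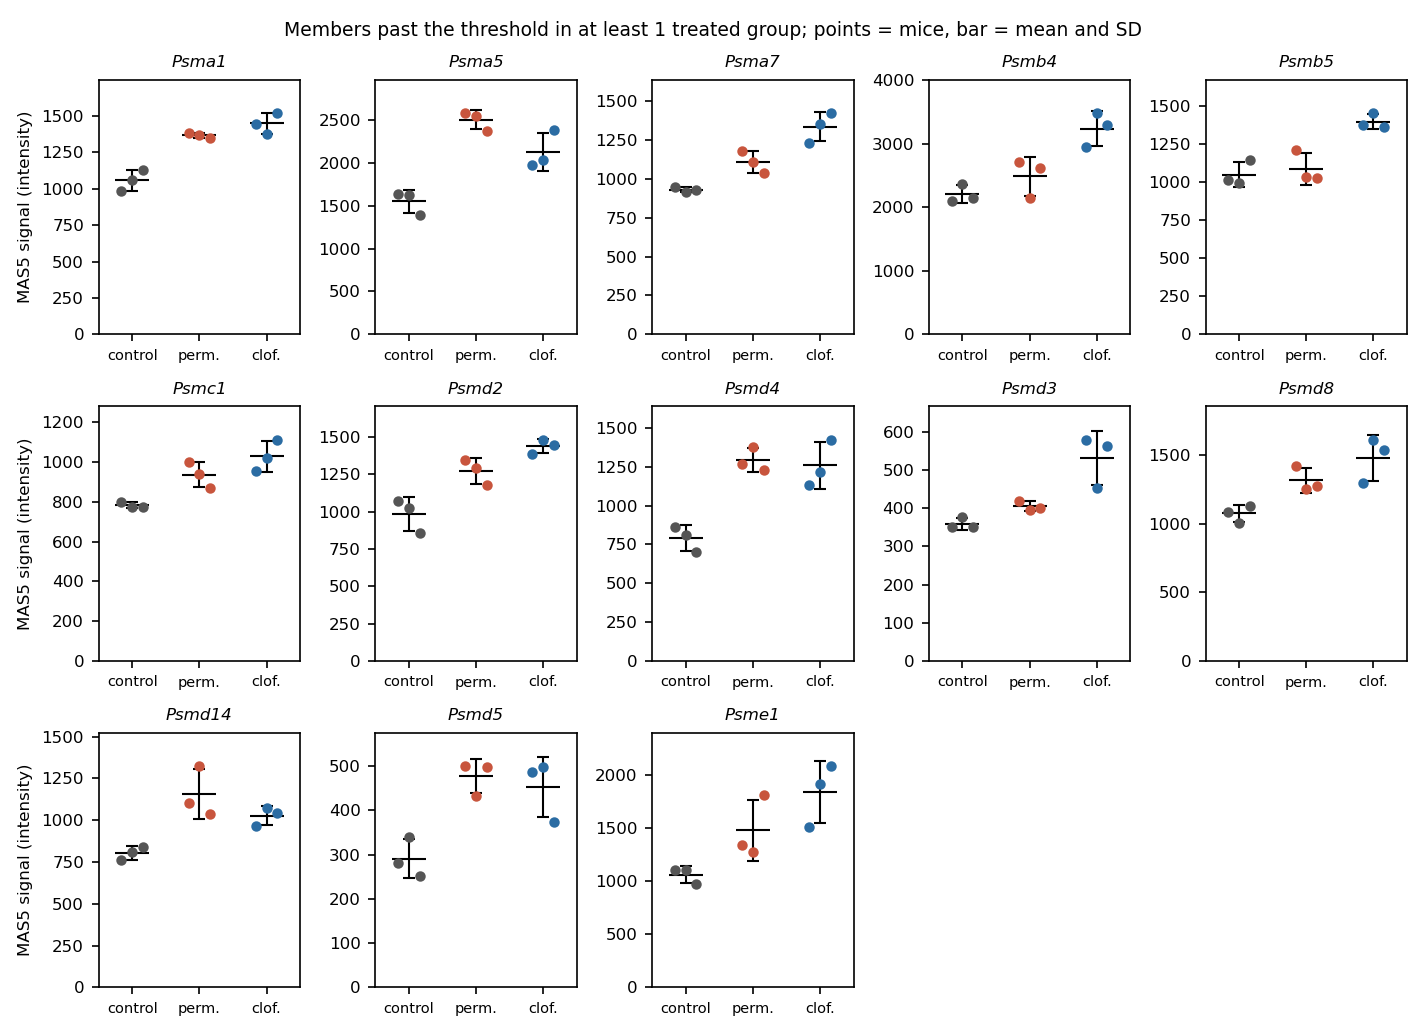
MAS5 signal (linear, axis from 0) of the 13 proteasome genes that passed the threshold in at least 1 treated group, 1 point per mouse, with the mean and SD of each group (n = 3). For Psma5, Psmd4 and Psmd5 all treated mice of both groups lie above all controls, while for Psmb4 and Psmb5 the permethrin points overlap the controls.

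Promoter sequences were taken from RefSeq (GRCm38.p6) for 35 of the 41 members, 250 bases before to 50 after each start, and searched on both strands for 5 motifs. The NRF1 and NRF2 element TGACNNNGC was in 6 of 35 members (17.1%) and in 14.0% of all 27025 genes. It was in 0 of 4 members that rose with permethrin and 1 of the 11 with a sequence here that rose with clofibrate, Psmb5. CCAAT, bound by NF-Y, was in 13 of 35 (37.1%, all genes 41.1%), the GC box GGGCGG in 22 (62.9%, 38.2%), the interferon element (GAAA, any 2 bases, GAAA) in 4 (11.4%, 3.99%) and the palindromic motif TTCNNNGAA, which reads the same on both strands, in 2 (5.71%, 9.55%), Psmb8 and Psmd2. The 100 bases before the start follow for the 4 members that rose with permethrin, for Psmb5 as the called member with TGACNNNGC and for Psmb8 as the inducible subunit with TTCNNNGAA. They lie at chr3:108256826-108256925 on the plus strand (Psma5), chr3:95042615-95042714 on the minus strand (Psmd4), chr2:34870963-34871062 on the minus strand (Psmd5), chr2:61711594-61711693 on the plus strand (Psmd14), chr14:54617996-54618095 on the minus strand (Psmb5) and chr17:34198095-34198194 on the plus strand (Psmb8). Each is written 5′ to 3′ on the strand of its gene, with motif matches in capitals.
Psma5: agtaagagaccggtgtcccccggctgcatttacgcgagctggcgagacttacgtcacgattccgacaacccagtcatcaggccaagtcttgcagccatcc
Psmd4: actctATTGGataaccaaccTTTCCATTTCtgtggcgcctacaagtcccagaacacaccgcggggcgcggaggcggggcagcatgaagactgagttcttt
Psmd5: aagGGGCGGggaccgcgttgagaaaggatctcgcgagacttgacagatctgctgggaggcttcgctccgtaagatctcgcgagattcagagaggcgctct
Psmd14: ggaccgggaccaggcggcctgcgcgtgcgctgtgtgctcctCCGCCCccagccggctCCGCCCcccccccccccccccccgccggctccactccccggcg
Psmb5: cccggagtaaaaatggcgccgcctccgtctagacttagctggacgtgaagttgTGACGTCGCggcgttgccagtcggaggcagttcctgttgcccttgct
Psmb8: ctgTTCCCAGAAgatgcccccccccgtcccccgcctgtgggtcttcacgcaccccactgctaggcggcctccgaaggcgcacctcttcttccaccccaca
In Psmd4 the capitals mark CCAAT and the interferon element, both matched on the opposite strand and beginning at -95 and -80. In Psmd5 they mark GGGCGG at -97, and in Psmd14 2 copies of it on the opposite strand at -59 and -43. In Psmb5 they mark TGACNNNGC at -47, and in Psmb8 TTCNNNGAA at -97. The Psma5 stretch holds none of the 5 motifs. A match describes letters in this window, not a bound site.

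In the alpha ring, the gated outer ring of the core, all 7 genes were higher than control in each permethrin mouse, and 1 of them, Psma5, passed the threshold. With clofibrate 3 of the 7 rose: Psma1, Psma5 and Psma7. The class medians were 0.250 and 0.234 on the log2 scale. The Psma5 signal was 1631, 1626 and 1393 in the control mice, 2576, 2546 and 2372 in the permethrin mice and 1968, 2035 and 2381 in the clofibrate mice. No treated mouse overlapped the controls, and of the clofibrate mice 1, clofibrate 3, reached the range of the permethrin mice. The change was 0.69 ± 0.11 on the log2 scale (1.61-fold, limma adjusted p = 0.0087) with permethrin and 0.46 ± 0.11 on the log2 scale (1.37-fold, limma adjusted p = 0.0306) with clofibrate. The Psma7 signal was 944, 916 and 928 in the control mice, 1177, 1109.6 and 1034 in the permethrin mice and 1232, 1352 and 1421 in the clofibrate mice. Here the clofibrate mice stood above the permethrin mice and those above the controls. The change of Psma7 with clofibrate was 0.52 ± 0.10 on the log2 scale (1.43-fold, limma adjusted p = 0.0107), and with permethrin it was 0.25 ± 0.10 (limma adjusted p = 0.283). The Psma1 signal was 986, 1061 and 1130.5 in the control mice, 1385, 1373 and 1348 in the permethrin mice and 1449, 1380.1 and 1519.8 in the clofibrate mice. The permethrin mice lay within a narrow band above every control, yet only the clofibrate change passed the threshold, at 0.45 ± 0.09 on the log2 scale (1.37-fold, limma adjusted p = 0.0173) against 0.37 ± 0.09 (limma adjusted p = 0.0855) with permethrin. The remaining alpha genes Psma2, Psma3, Psma4 and Psma6 had changes of 0.36, 0.19, 0.20 and 0.08 with permethrin and 0.23, 0.08, 0.17 and 0.18 with clofibrate, none past the threshold. The permethrin call of Psma5 held without any single mouse. Its clofibrate call ended without each control mouse, clofibrate 2 or clofibrate 3 (highest adjusted p 0.138), that of Psma7 without clofibrate 3 (0.0621), and that of Psma1 without control 1, control 2 or clofibrate 3 (0.0871).

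In the constitutive beta ring, the inner ring with the proteolytic sites, 0 of 7 genes passed the threshold with permethrin and 2 of 7, Psmb4 and Psmb5, rose with clofibrate. The class medians were 0.056 with permethrin and 0.399 with clofibrate. The Psmb5 signal, for the subunit with the chymotrypsin-like site, was 1018, 993 and 1145 in the control mice, 1211, 1033 and 1028 in the permethrin mice and 1380.1, 1456 and 1363 in the clofibrate mice. The clofibrate mice were all above the rest, and the permethrin mice overlapped the controls. Its change was 0.41 ± 0.11 on the log2 scale (1.33-fold, limma adjusted p = 0.0444) with clofibrate and 0.05 ± 0.11 (limma adjusted p = 0.883) with permethrin. The Psmb4 signal, for a structural subunit without a proteolytic site, was 2107, 2369 and 2154 in the control mice, 2718, 2141 and 2616 in the permethrin mice and 2945, 3481 and 3295 in the clofibrate mice. Every clofibrate mouse exceeded every other mouse. The change was 0.55 ± 0.11 on the log2 scale (1.46-fold, limma adjusted p = 0.0165) with clofibrate and 0.17 ± 0.11 (limma adjusted p = 0.568) with permethrin. The Psmb6 signal, for the caspase-like subunit, was 1443, 1414 and 1474 in the control mice, 1619, 1468 and 1478 in the permethrin mice and 1576, 1650.5 and 1706 in the clofibrate mice. Its clofibrate mice were all above the controls, with a change of 0.19 ± 0.09 (limma adjusted p = 0.29), and 2 of the permethrin mice lay just above or among them, with 0.07 ± 0.09 (limma adjusted p = 0.774). The Psmb7 signal, for the trypsin-like subunit, was 2135, 2524 and 2930.0 in the control mice, 2732, 1779 and 2028 in the permethrin mice and 2799.7, 3665 and 3527 in the clofibrate mice. Controls overlapped with both treated groups, and the changes were 0.40 ± 0.17 (limma adjusted p = 0.231) with clofibrate and -0.23 ± 0.17 (limma adjusted p = 0.614) with permethrin. Psmb1, Psmb2 and Psmb3 did not pass the threshold, with changes of 0.33, 0.43 and 0.04 with clofibrate and 0.16, -0.28 and 0.06 with permethrin. A dimmer probe set of Psmb3 gave 0.34 with clofibrate (limma adjusted p = 0.115) and 0.14 with permethrin (limma adjusted p = 0.640). On that probe set all clofibrate mice were above all controls. The Psmb5 call ended in 7 of the 9 fits that left out 1 mouse, all but those without permethrin 1 or permethrin 2 (highest adjusted p 0.152), and that of Psmb4 in 4, without control 1, control 3, clofibrate 2 or clofibrate 3 (0.0741).

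The 3 inducible subunits were below control on average in both treated groups, and 0 of 3 passed the threshold in either comparison. Psmb8, Psmb9 and Psmb10 replace the constitutive Psmb5, Psmb6 and Psmb7 products in that order. The class medians were -0.271 with permethrin and -0.408 with clofibrate. The Psmb8 signal was 215, 380.0 and 261 in the control mice, 207, 194 and 426 in the permethrin mice and 159.9, 179.6 and 314 in the clofibrate mice. Clofibrate 3 and permethrin 3 lay among or above the controls, and the other treated mice were below all controls. The changes were -0.10 ± 0.33 (limma adjusted p = 0.93) with permethrin and -0.41 ± 0.33 (limma adjusted p = 0.568) with clofibrate. The Psmb9 signal was 205, 277 and 204 in the control mice, 176, 123 and 303 in the permethrin mice and 122, 192 and 233 in the clofibrate mice. Again the third mouse of each treated group stood highest in its group, and the groups overlapped, with changes of -0.27 ± 0.31 (limma adjusted p = 0.759) and -0.36 ± 0.31 (limma adjusted p = 0.599). The Psmb10 signal was 368, 444 and 367 in the control mice, 277, 280.2 and 387 in the permethrin mice and 245, 257 and 327 in the clofibrate mice. All clofibrate mice were below all controls here, by -0.51 ± 0.17 (limma adjusted p = 0.111), while permethrin 3 lay between the controls, with a group change of -0.33 ± 0.17 (limma adjusted p = 0.419). The spread between mice of a group was wider than for the typical member: the pooled SD was 0.221 to 0.523 on the log2 scale for these 3, against a median of 0.119 over all 40 members. In such whole-tissue samples, fewer cells of a type and less RNA per cell cannot be told apart.

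In each group the mouse highest in the inducible subunits was also the highest in markers of interferon response and Kupffer cells. As the median of the 3 inducible subunits relative to the control mean, the control mice were at -0.14, 0.29 and -0.09, the permethrin mice at -0.41, -0.51 and 0.41, and the clofibrate mice at -0.78, -0.60 and 0.04. The median of 17 interferon response genes was -0.15, 0.39 and -0.32 in control, -0.43, -0.07 and 0.77 in permethrin and -0.35, -0.08 and 0.15 in clofibrate mice. Control 2, permethrin 3 and clofibrate 3 were thus the highest of their groups in both. Kupffer cell markers, 8 of 8 tested, summed to 2908 to 3387, 2453 to 5158 and 2689 to 3815, and their medians were highest in the same 3 mice. Of 18 immune cell markers 10 were tested, and these summed to 726.1 to 935.2, 643.5 to 1482 and 675 to 1144. The highest sums were again in control 2, permethrin 3 and clofibrate 3. By the median of the 10, however, permethrin 2 (0.18) stood above permethrin 3 (0.16), with control 2 (0.16) and clofibrate 3 (0.23) highest in their groups. Cd3e, Cd3g, Cd4, Cd79a, Nkg7, Gzmb and Itgam did not pass the filter, and 0 of the 10 tested were called in either comparison, among them Ptprc (CD45) with 0.28 ± 0.25 (limma adjusted p = 0.678) and 0.02 ± 0.25 (limma adjusted p = 0.979). That count is near the shares of all genes, 1.28% higher and 0.85% lower with permethrin and 3.22% and 3.8% with clofibrate. Endothelial and stellate cell markers did not follow this order in the treated groups. Their sums were highest in control 2 (3840), permethrin 2 (3252) and clofibrate 2 (2866). The part of these markers in the spread of the inducible subunits was not tested.

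**Figure D3:**
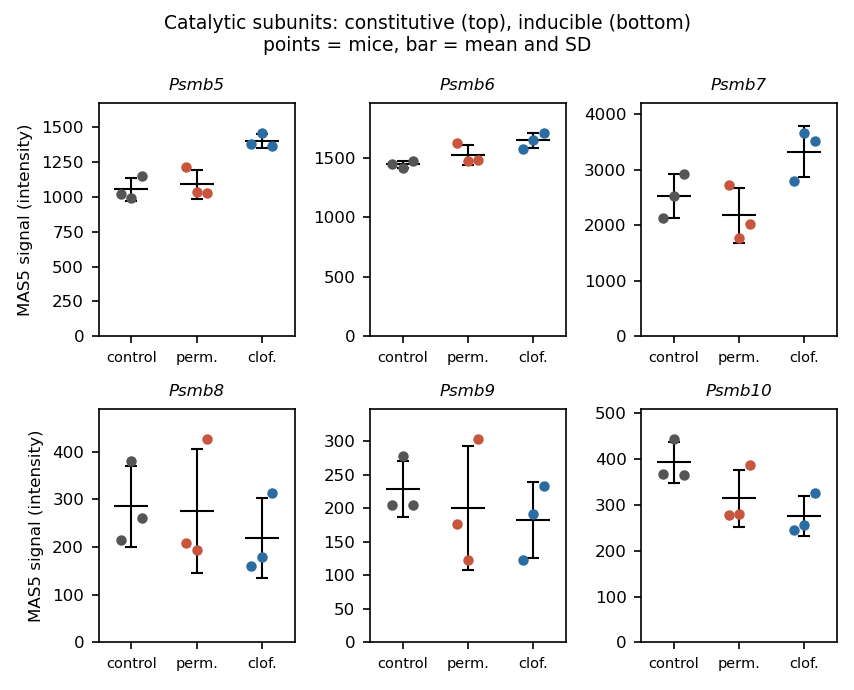
MAS5 signal (linear, axis from 0) of the constitutive catalytic subunits Psmb5, Psmb6 and Psmb7 and of the inducible Psmb8, Psmb9 and Psmb10 that replace them, 1 point per mouse with group mean and SD (n = 3). Clofibrate points lie above the controls for Psmb5 and Psmb6 and below them for Psmb10, and the highest treated points of the lower row belong to permethrin 3 and clofibrate 3.

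Among the 6 ATPases that unfold substrates, 0 passed the threshold with permethrin and 1, Psmc1, rose with clofibrate. All 6 changes were above 0 with permethrin (median 0.298) and 5 of 6 with clofibrate (median 0.217). The Psmc1 signal was 802, 777 and 774 in the control mice, 1000.3, 941 and 871 in the permethrin mice and 957, 1019 and 1113 in the clofibrate mice. Treated mice of both groups were all above the controls. The change was 0.39 ± 0.10 on the log2 scale (1.31-fold, limma adjusted p = 0.0497) with clofibrate and 0.25 ± 0.10 (limma adjusted p = 0.291) with permethrin, and the clofibrate call ended in 8 of the 9 fits without 1 mouse, all but that without clofibrate 1 (highest adjusted p 0.199). The Psmc2 signal was 1935, 1734 and 1683 in the control mice, 2149.9, 2595 and 2099 in the permethrin mice and 1868, 1510.3 and 1614 in the clofibrate mice. Its permethrin mice were above the controls and its clofibrate mice overlapped them, with changes of 0.35 ± 0.12 (limma adjusted p = 0.204) and -0.10 ± 0.12 (limma adjusted p = 0.707). A dimmer probe set of Psmc2 passed the threshold with permethrin, at 0.55 (limma adjusted p = 0.037). On that probe set the clofibrate mice were also all above the controls, at 0.29 (limma adjusted p = 0.179). Psmc3, Psmc4, Psmc5 and Psmc6 had changes of 0.16, 0.46, 0.10 and 0.34 with permethrin and 0.19, 0.32, 0.03 and 0.24 with clofibrate, none past the threshold.

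The other base subunits were the class with the highest median, 0.370 with permethrin and 0.550 with clofibrate, and all 3 genes were above every control in both groups. Psmd4, a receptor for ubiquitin chains, rose in both. The Psmd4 signal was 860.0, 813 and 700.3 in the control mice, 1269, 1379.7 and 1229 in the permethrin mice and 1135, 1218 and 1425 in the clofibrate mice. The permethrin and clofibrate ranges overlapped each other and left the controls far below. The change was 0.71 ± 0.12 on the log2 scale (1.63-fold, limma adjusted p = 0.0136) with permethrin and 0.67 ± 0.12 on the log2 scale (1.59-fold, limma adjusted p = 0.00777) with clofibrate. The Psmd2 signal, for a scaffold on which ubiquitin-like domains dock, was 1073, 1027 and 859 in the control mice, 1345, 1292 and 1178 in the permethrin mice and 1387, 1482 and 1448 in the clofibrate mice. Clofibrate mice were all above the permethrin mice, and the change was 0.55 ± 0.11 on the log2 scale (1.46-fold, limma adjusted p = 0.014) with clofibrate and 0.37 ± 0.11 (limma adjusted p = 0.142) with permethrin. Psmd1, the other large scaffold, had changes of 0.32 ± 0.09 (limma adjusted p = 0.133) and 0.26 ± 0.09 (limma adjusted p = 0.15). The clofibrate call of Psmd4 held without any single mouse, and its permethrin call ended without control 3 or permethrin 2 (highest adjusted p 0.0654). The Psmd2 call ended without control 3 or clofibrate 3 (0.0597).

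In the lid, 1 of 8 genes, Psmd14, rose with permethrin and 2 of 8, Psmd3 and Psmd8, rose with clofibrate, with medians of 0.290 and 0.339. Psmd14 is the metalloprotease that cuts the ubiquitin chain from the substrate. The Psmd14 signal was 761, 812 and 839 in the control mice, 1106, 1323 and 1037 in the permethrin mice and 964, 1075 and 1044 in the clofibrate mice. All treated mice were above all controls. The change was 0.51 ± 0.11 on the log2 scale (1.43-fold, limma adjusted p = 0.04997) with permethrin, just inside the threshold, and 0.35 ± 0.11 (limma adjusted p = 0.108) with clofibrate. The Psmd3 signal, for a structural lid subunit, was 351, 378 and 351 in the control mice, 420.3, 394 and 401 in the permethrin mice and 579.8, 452 and 564 in the clofibrate mice. Clofibrate mice were highest, permethrin mice formed a narrow band above the controls, and the changes were 0.55 ± 0.12 on the log2 scale (1.47-fold, limma adjusted p = 0.022) and 0.17 ± 0.12 (limma adjusted p = 0.589) in that order. The Psmd8 signal, for another structural subunit, was 1089, 1008 and 1130.5 in the control mice, 1419, 1249 and 1276 in the permethrin mice and 1293, 1612 and 1539.5 in the clofibrate mice. Both treated groups were above the controls, with 0.46 ± 0.11 on the log2 scale (1.37-fold, limma adjusted p = 0.0369) for clofibrate and 0.29 ± 0.11 (limma adjusted p = 0.271) for permethrin. The Psmd11 signal, for a subunit that ties the lid to the core, was 3706, 3464 and 3307 in the control mice, 4138, 4554 and 4149.8 in the permethrin mice and 3261, 3227 and 3552 in the clofibrate mice. The permethrin mice were above all others and the clofibrate mice overlapped the controls, with 0.29 ± 0.09 (limma adjusted p = 0.148) and -0.06 ± 0.09 (limma adjusted p = 0.773). A dimmer probe set of Psmd11 passed the threshold with permethrin, at 0.52 (limma adjusted p = 0.048). Psmd6, Psmd7, Psmd12 and Psmd13 had changes of -0.05, 0.29, 0.34 and 0.04 with permethrin and 0.09, 0.36, 0.27 and 0.33 with clofibrate, none past the threshold. The Psmd14 call ended in 8 of the 9 fits without 1 mouse, all but that without clofibrate 1 (highest adjusted p 0.187). The Psmd3 call ended in 5, without any control mouse, clofibrate 1 or clofibrate 3 (0.103), and the Psmd8 call in 6, without any control mouse, permethrin 3, clofibrate 2 or clofibrate 3 (0.142).

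Psmd5, Psmd9 and Psmd10 encode chaperones that help the ATPase ring assemble and are not part of the finished particle. Psmd5 rose in both comparisons and the others passed the threshold in neither. The Psmd5 signal was 282, 339 and 251 in the control mice, 499.6, 433 and 499 in the permethrin mice and 486, 498 and 373 in the clofibrate mice. No treated mouse overlapped the controls, and the treated groups overlapped each other. The change was 0.72 ± 0.15 on the log2 scale (1.64-fold, limma adjusted p = 0.0413) with permethrin and 0.63 ± 0.15 on the log2 scale (1.55-fold, limma adjusted p = 0.0339) with clofibrate. The permethrin call ended without control 1, control 3 or any permethrin mouse (highest adjusted p 0.162), and the clofibrate call without control 1, control 3, clofibrate 1 or clofibrate 2 (0.124). Psmd9 and Psmd10 had changes of -0.08 and -0.11 with permethrin and 0.15 and 0.11 with clofibrate.

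Psme1 encodes a subunit of PA28, an interferon-inducible ring that opens the core from its end, and it had the largest called change of the family, with clofibrate. The Psme1 signal was 1105, 1109 and 969.6 in the control mice, 1344, 1279 and 1810.3 in the permethrin mice and 1512, 1914 and 2082 in the clofibrate mice. Both treated groups were above all controls, with permethrin 3 standing apart from the other permethrin mice. The change was 0.78 ± 0.15 on the log2 scale (1.72-fold, limma adjusted p = 0.0135) with clofibrate and 0.46 ± 0.15 (limma adjusted p = 0.201) with permethrin. The clofibrate call ended without control 3 or clofibrate 3 (highest adjusted p 0.0673). Its partner Psme2 was measured only by the probe set shared with Psme2b, with changes of 0.04 (limma adjusted p = 0.950) and 0.14 (0.747). Psme3, the nuclear relative of PA28, had 0.04 and 0.14, and Psme4, the activator PA200, had 0.28 and 0.24, none past the threshold.

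**Figure D4:**
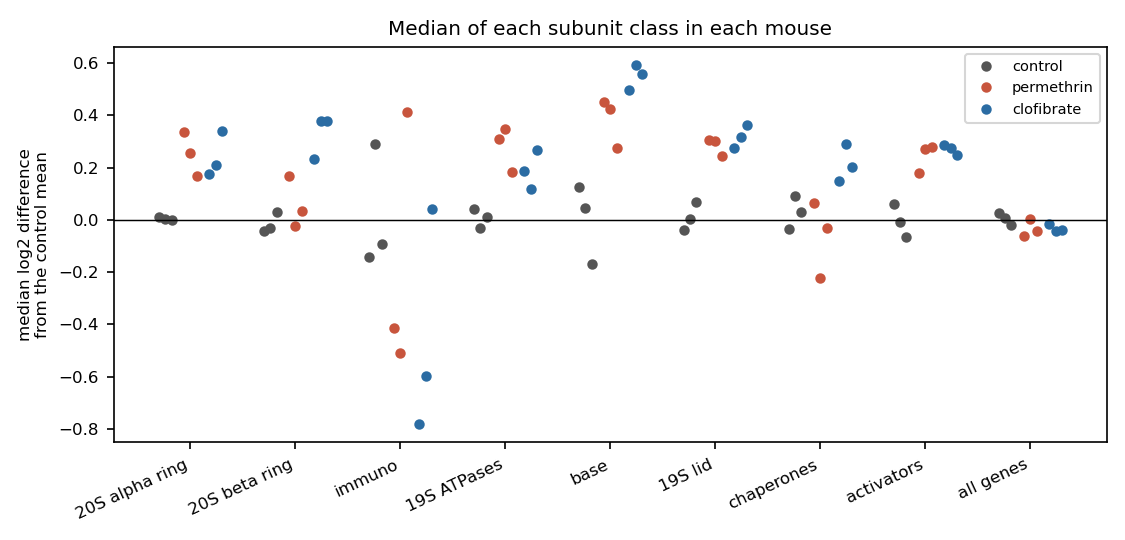
Median over each subunit class of the log2 signal minus the control mean of the gene, 1 point per mouse, with all tested genes at the right for comparison. All 3 permethrin and all 3 clofibrate mice lie above the controls in the alpha ring, the ATPases, the base, the lid and the activators, the clofibrate mice also do in the beta ring and the chaperones, and the immunoproteasome points spread from -0.78 to 0.41.

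Several members have more than 1 probe set. The representatives of Psma6 and Psmc2 have names ending in _x_at, and those of Psmd11 and Psme4 in _s_at. Of the 40, 20 had at least 1 further tested probe set of their own, 30 in all. The further probe sets had the sign of the representative in 24 of 30 cases with permethrin and 21 of 30 with clofibrate. Among the 17 with a mean signal of at least 100, 17 were above 0 with permethrin and 16 with clofibrate. Second probe sets passed the threshold for Psma5 in both comparisons (0.48, adjusted p 0.044 by limma, and 0.51, 0.014), for Psmd4 in both (0.67, 0.010, and 0.85, 0.000826) and for Psma7 with clofibrate (0.67, 0.004). A second probe set of Psmb4 did not pass with clofibrate, at 0.32 (limma adjusted p = 0.187). A dim second probe set of Psma1, with signals from 13.9 to 28.1, did not pass either, at 0.35 (0.568). The Psma6 signal on the representative probe set was 2199.7, 2050.4 and 2256 in the control mice, 2307, 2273 and 2272 in the permethrin mice and 2289.7, 2442 and 2650.2 in the clofibrate mice; all treated mice were above the controls by a narrow margin, and another of its probe sets passed with clofibrate, at 0.35 (limma adjusted p = 0.0322).

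The direct comparison of the treated groups tests whether the responses differ. Of the 40 members 0 passed the threshold, where 0.473% of all genes were higher with permethrin and 0.265% higher with clofibrate. At an unadjusted limma p under 0.05, 3 members were higher with permethrin (6.59% of all genes) and 7 higher with clofibrate (6.44%). The difference was above 0 for 19 of the 40 (49.3% of all genes), and all permethrin mice were above all clofibrate mice for 2 (9.08%). The lowest adjusted p was 0.122, for Psmd11, at 0.35 (95% interval 0.16 to 0.55) in favour of permethrin. Psmc2 followed in that direction, at 0.45 (0.19 to 0.71). On the dimmer probe set of Psmc2 the difference was 0.26 (0.009 to 0.51, limma adjusted p = 0.394), and the treated groups overlapped. In the other direction the constitutive beta ring held 4 of the 8 members whose permethrin mice were all below their clofibrate mice (9.02% of all genes): its class median was -0.363. The Psmb2 signal, for a structural subunit, was 482, 407 and 505 in the control mice, 519.7, 266 and 395 in the permethrin mice and 614, 574 and 696 in the clofibrate mice. Permethrin 2 was the lowest mouse and the clofibrate mice were the highest, at a difference of -0.72 (-1.17 to -0.27, limma adjusted p = 0.173). For Psmb7 the difference was -0.62 (SE 0.17, limma adjusted p = 0.154), for Psmb4 -0.38 (-0.63 to -0.13, 0.191) and for Psmb5 -0.36 (-0.59 to -0.13, 0.182). A second probe set of Psmb4 gave -0.09 (-0.37 to 0.19, limma adjusted p = 0.833), and there the treated groups overlapped. The 95% intervals had half-widths of 0.192 to 0.723 on the log2 scale, with a median of 0.245. They lay within 1 log2 unit of 0 for 37 of the 40 members, Psmb2, Psmb7 and Psmb8 being the others, and do not show that the compounds act alike.

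Companion genes of the proteasome were described by list. Over all genes 1.28% rose and 0.85% fell with permethrin, and 3.22% rose and 3.8% fell with clofibrate. A count of 0 in lists of this size is near those shares. Of 14 other proteasome genes tested, such as assembly factors and associated enzymes, 0 passed the threshold in either comparison, with medians of 0.057 and 0.068. Pomp, which guides assembly of the core, had 0.25 ± 0.10 (limma adjusted p = 0.283) and 0.28 ± 0.10 (limma adjusted p = 0.148). Among 9 genes of NRF1 control, 0 rose with permethrin and 1 rose with clofibrate, Nfe2l1 itself. The Nfe2l1 signal was 206, 181 and 217 in the control mice, 232, 163 and 286 in the permethrin mice and 329, 426 and 446 in the clofibrate mice. Clofibrate mice were above all others and permethrin mice straddled the controls. The change was 0.97 ± 0.20 on the log2 scale (1.96-fold, limma adjusted p = 0.0151) with clofibrate and 0.14 ± 0.20 (limma adjusted p = 0.813) with permethrin, and the difference between the treated groups was -0.83 ± 0.20 (limma adjusted p = 0.102). This call rests on 1 probe set and ended without control 1, control 2, clofibrate 2 or clofibrate 3 (highest adjusted p 0.0729). Of 16 genes for ubiquitin, its activation and the p97 cofactors, 2 rose with clofibrate and 0 with permethrin: Nploc4, a p97 cofactor, at 0.71 ± 0.16 on the log2 scale (1.63-fold, limma adjusted p = 0.0248), and the ubiquitin ligase gene Stub1, at 0.43 ± 0.10 on the log2 scale (1.35-fold, limma adjusted p = 0.0242). Both calls ended without control 1, control 2, clofibrate 2 or clofibrate 3, that of Nploc4 also without clofibrate 1 and that of Stub1 without control 3 (highest adjusted p 0.102 and 0.106).

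NRF2, a relative of NRF1, controls antioxidant and conjugation genes. Of 14 tested targets 7 rose with permethrin (median 0.62), and 4 rose and 1 fell with clofibrate (median 0.196). Over all genes 1.28% rose with permethrin, and 3.22% rose and 3.8% fell with clofibrate. The largest were the efflux transporter gene Abcc4, at 2.97 with permethrin and 2.23 with clofibrate, and the glutathione transferase gene Gstm3, at 1.85 and -0.01 (limma adjusted p = 0.000174, 0.000567, 0.0013 and 0.983). The classic target Nqo1 had 0.59 ± 0.14 (limma adjusted p = 0.0757) and 0.03 ± 0.14 (limma adjusted p = 0.944). Between the treated groups, 3 of the 14 were higher with permethrin, where 0.473% of all genes were. PPAR alpha markers rose with both compounds, 5 of 7 with permethrin and 6 of 7 with clofibrate, where the remaining 1 fell, and Cd36, a fatty acid transporter, had 3.64 ± 0.17 (limma adjusted p = 2.56e-06) and 4.49 ± 0.17 (limma adjusted p = 2.55e-07).

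The immunoproteasome works with the antigen presentation pathway. No gene of the companion list for that pathway rose against control, a count near the share of all genes (1.28% with permethrin, 3.22% with clofibrate). The shares of all genes that fell were 0.85% and 3.8%. Of 11 MHC class I pathway genes 0 were called with permethrin (median -0.089), and 2 fell with clofibrate (median -0.277): Calr, a chaperone of the endoplasmic reticulum, at -0.61 ± 0.09 (limma adjusted p = 0.0032), and B2m, the MHC class I light chain, at -0.29 ± 0.07 (limma adjusted p = 0.0411), which was above 0 under quantile normalization and under scaling to the hybridization controls. The B2m call ended in 8 of the 9 fits without 1 mouse, all but that without clofibrate 1 (highest adjusted p 0.147), and the Calr call ended when arrays were centred on their medians (-0.53, limma adjusted p = 0.0929) or scaled to the hybridization controls (-0.28, 0.164). Tap1, which carries peptides into the endoplasmic reticulum, had -0.22 ± 0.20 (limma adjusted p = 0.683) and -0.35 ± 0.20 (limma adjusted p = 0.382). Of 17 interferon response genes 0 were called in either comparison, again near those shares, with medians of 0.114 and -0.096.

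**Figure D5:**
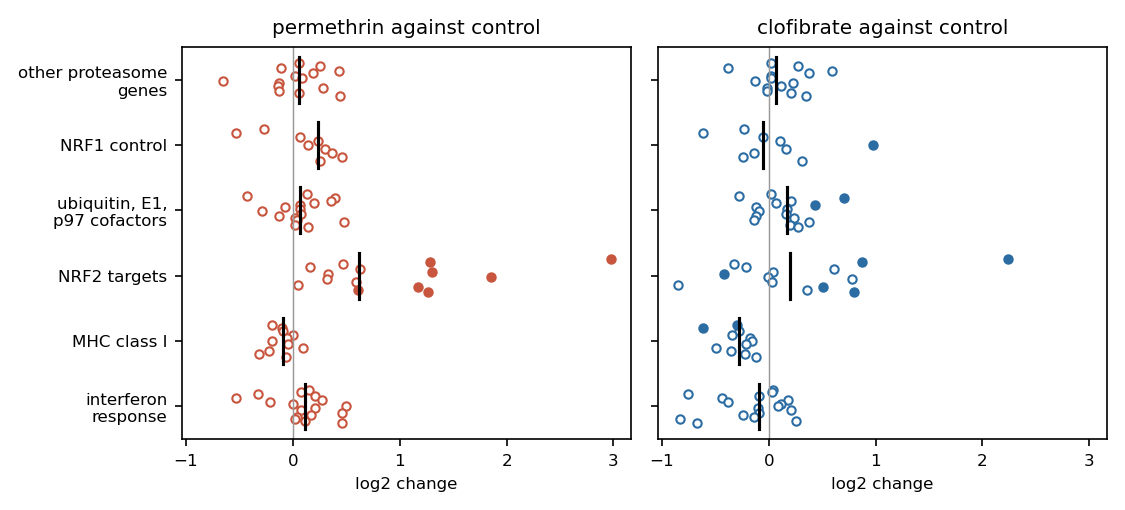
Log2 change against control of the genes of 6 lists around the proteasome, 1 point per gene, with permethrin at left and clofibrate at right. Filled points passed a limma adjusted p of 0.05 and the vertical bar is the median of the list. Filled points are most frequent among the NRF2 targets, 7 of 14 with permethrin, and Nfe2l1 is the single filled point of the NRF1 list.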

How the data were processed

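The authors' deposited table holds 1 MAS5 signal, a linear intensity, per probe set for each of 9 arrays (3 mice each on control, permethrin and clofibrate diets). MAS5 is named per the submitters' processing notes, while its version and settings were not stated. No column belonged to another sample. Of 45101 rows, 64 were array controls. Of the other 45037 probe sets, 34945 carried 1 gene symbol, 932 several and 9160 none here, and 34741 symbols were updated through RefSeq. Before log2, the 20th percentile of the signals, 3.348, was added as an offset, and 24546 probe sets with a signal above 15.55 (the median) in at least 3 arrays were tested. All 9 arrays entered 1 limma fit (limma 3.58.1, R 4.3.3) of group means with an intensity trend, after tests on simulated data. P-values are two-sided and adjusted by Benjamini-Hochberg over all tested probe sets. The replicates are separate mice, and 3 per group limit the precision. Replicate numbers were not treated as pairs, since the labels do not say that a number pairs mice. Deviations from group means correlated at -0.109 to 0.113 for same-numbered mice and at -0.0903 to 0.167 for differently numbered mice.

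Members, companion lists and motifs were chosen with earlier results of these data known. Named genes are all members, with signals of every mouse for those past the threshold, the catalytic subunits and their inducible counterparts, and those with a disagreeing probe set; Psmb2 was added for its difference between the treated groups. From each companion list, up to 4 of the largest called changes were eligible, plus Nfe2l1, Pomp, Tap1, Nqo1, Cd36, Alb and Ptprc. Not every eligible gene of these lists is reported here. The lists covered other proteasome genes, NRF1 control, ubiquitin and p97, NRF2 targets, MHC class I, interferon response, PPAR alpha markers, and markers of hepatocytes, immune, Kupffer, endothelial and stellate, and bile duct and pancreas cells. Endothelial and stellate markers (13 of 13 tested) summed to 3191 to 3840 in control, 2679 to 3252 in permethrin and 2446 to 2866 in clofibrate mice. Alternatives covered the offset, normalization, filter, variance model, array weights, arrays in the fit, choice of probe set, a replicate block and leaving out each mouse.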

Additional observations from a re-analysis of the deposited data

How the results depend on the processing

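No member's call turned to the opposite direction under any of the 24 alternatives for each comparison. The sign of an uncalled change did turn, in 19 of 960 values (members by alternatives) with permethrin and 15 of 960 with clofibrate. Between the treated groups it turned in 45 of 960. With permethrin 4 members rose. The number was 2 under quantile normalization, centring on array medians, scaling to the hybridization controls, no filter on dim probe sets, or the replicate block, 0 without the intensity trend, and 1 to 4 when 1 mouse was left out. Over all genes 160 rose with permethrin. That number was 164, 117, 144, 130 and 130 in these settings in the same order. It was 62 without the intensity trend and 83 to 181 without 1 mouse. The median of 0.197 became 0.303 with centring and 0.345 with hybridization-control scaling, and was 0.179 to 0.228 without 1 mouse. With clofibrate 12 members rose. The number was 5 with centring, 20 with hybridization-control scaling, 1 without the intensity trend, 7 with only the 6 arrays compared, 8 with the replicate block, and 2 to 11 without 1 mouse. Over all genes 402 rose with clofibrate. That number was 305, 1015, 219, 375 and 333 in these settings in the same order, and 213 to 406 without 1 mouse. The median of 0.265 became 0.349 with centring, 0.31 with cyclic loess, 0.599 with hybridization-control scaling and 0.326 without probe sets of the _x_at and _s_at kinds, and was 0.248 to 0.292 without 1 mouse. Hybridization-control scaling shifts all genes: the median gene moved to 0.094 and 0.273, and relative to it the members' medians were 0.251 and 0.326. Between the treated groups the number was 0 in every setting, and the median of -0.0463 became -0.233 with hybridization-control scaling (-0.0485 relative to the median gene) and -0.0667 to -0.00767 without 1 mouse. The cause of these shifts was not tested.

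Among single genes, B2m with clofibrate was above 0 under quantile normalization (0.000424) and hybridization-control scaling (0.0426). Class medians kept their sign against control in all alternatives, except the immunoproteasome with permethrin (-0.485 to 0.0268) and the assembly chaperones with permethrin (-0.127 to 0.0639). The labels do not say that a replicate number pairs mice, as given with the processing. The number of arrays, 3 per group, limits what could be called.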
